A study of Mus musculus with 2 samples.

Results

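The genes described here were 7 components of the Hedgehog signalling pathway: the ligand Shh, the receptor Ptch1, the signal transducer Smo, the transcription factors Gli1, Gli2 and Gli3, and the surface antagonist Hhip. They were taken by name from the gene lists of both count matrices, where they made up 7 of 32285 genes. The data are single-cell RNA sequencing libraries from dissociated prostate of wild-type male C57BL6 mice. The tissue was the ventral lobes in 1 library and, in the other, the proximal and periurethral region, which lies at the urethra. Age and the number of animals per library are not given in the sources used here, and both groups were untreated as far as the labels say. The ventral library used kit version 2 and the proximal library kit version 3 of the 10x Genomics platform, so region and kit cannot be told apart. With 1 library in each group no test was possible, and every interval below is an exact 95% interval for counting error only. Where a count was 0, the limit given is what 3 counts would be, which lies below the upper bound of the exact interval.

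Hedgehog ligands are secreted proteins that bind Ptch1 on receiving cells. Unbound Ptch1 holds Smo inactive. Ligand binding releases Smo, which acts through the primary cilium on the Gli factors: Gli2 is mainly an activator of transcription, Gli3 is mainly processed to a repressor, and Gli1 is an activator that is itself a target of the pathway. Ptch1 and Hhip are also targets, and both bind the ligand, so they limit signalling. In the developing prostate Shh is made by the urogenital epithelium and the surrounding mesenchyme responds.

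The files held 2221 ventral and 4344 proximal barcodes with 49356586 and 97817603 unique molecular identifiers (UMIs, each counting 1 captured RNA molecule). After filtering, 1988 ventral and 3705 proximal cells remained, and no barcode was shared. Cells were clustered without the pathway genes and named from marker lists, and a name such as basal-like means only that the cluster carried those markers. The proximal library held 686 basal-like, 796 proximal luminal-like, 707 distal luminal-like and 521 fibroblast-like cells. The ventral library held 141 basal-like, 80 proximal luminal-like and 1713 distal luminal-like cells and no cluster named fibroblast-like, so receiving stroma could be described in the proximal library alone. All 7 basal markers were found in over 25% of the proximal basal-like cells, and 6 of 7 fibroblast markers in over 25% of the fibroblast-like cells. The fibroblast-like cells also passed 25% for 2 of 6 smooth muscle, 1 of 5 glial, 1 of 4 mesothelial, 1 of 6 endothelial and 6 of 8 distal luminal markers, and for 0 of 7 basal and 0 of 5 pericyte markers. Fibroblast markers made up 0.887% of their UMIs, smooth muscle markers 0.0641% and distal luminal markers 0.233%, and the part of these other markers in the results was not tested. The ventral basal-like cluster passed 25% for 6 of 7 basal, 1 of 7 fibroblast and 4 of 8 distal luminal markers. Its leading genes included the fibroblast genes Dcn and Sparc, and fibroblast markers made up 0.534% of its UMIs, basal markers 0.470% and distal luminal markers 1.72%. In proximal basal-like cells these sums were 0.199%, 0.632% and 0.299%. In the proximal library 3 clusters with 802 cells stayed unnamed. No cluster was named smooth muscle-like, pericyte-like or glial-like. Levels are in CPM, the UMIs of a gene over all UMIs of a class, scaled to the usual counts-per-million unit, and they are compared between classes for the same gene.

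The ligand had its highest level in basal-like cells. Shh (ENSMUSG00000002633, chromosome 5, 28456815 to 28467256, minus strand, GRCm38) had 602 UMIs in the kept proximal cells and 21 in the ventral cells. Proximal basal-like cells held 292 of them, a level of 36.3 CPM (32.3 to 40.7), and ventral basal-like cells held 19, a level of 26.2 CPM (15.8 to 40.9). The ventral value was 49.3 CPM with each cell named by its own markers. Proximal luminal-like cells of the proximal library had 62 UMIs of Shh at 2.63 CPM (2.01 to 3.37), and distal luminal-like cells had 16 UMIs at 0.469 CPM (0.268 to 0.761). In the ventral library the proximal luminal-like cells held 0 UMIs of Shh, where 3 UMIs would be 2.69 CPM, and the 1713 distal luminal-like cells held 2. The basal interval overlapped neither luminal interval in either library. No Shh was found in the 29 ventral macrophage-like cells, where 3 UMIs would be 22.3 CPM and the exact upper bound is 27.4 CPM, both inside the ventral basal interval.

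Within the proximal library the Shh level of basal-like cells was 13.8-fold (10.5 to 18.5) that of proximal luminal-like and 77.5-fold (46.9 to 137) that of distal luminal-like cells. In the ventral library it was at least 9.73-fold higher than in proximal luminal-like cells, with 3 UMIs set for the 0 (the exact interval began at 7.17), and 606-fold (146 to 5363) that of distal luminal-like cells, a ratio that rests on 2 UMIs. On the log2 scale the proximal ratio to proximal luminal-like cells was 3.79. It ranged from 2.42, with coarser clustering, to 4.09 over 17 alternative settings. The ratio to distal luminal-like cells was 6.28 on that scale and ranged from 3.75, with each cell named by its own markers, to 7.93. The ventral log2 ratio to proximal luminal-like cells, a bound of 3.28, ranged from 2.35, with coarser clustering, to 4.16, with a looser cell filter. That to distal luminal-like cells was 9.24 and ranged from 7.74, with each cell named by its own markers, to 10.22, with free RNA subtracted.

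**Figure D1:**
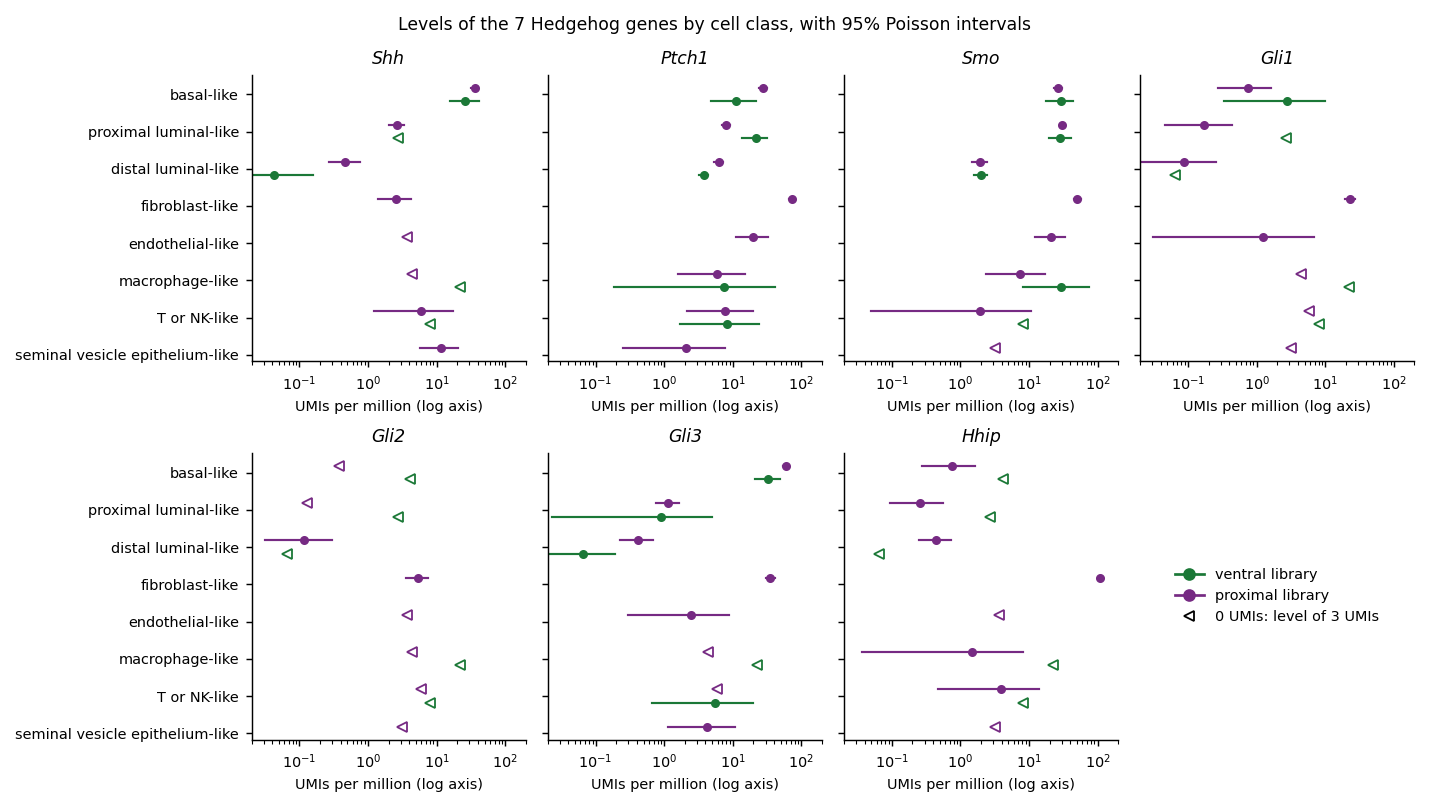
Level of each of the 7 genes (CPM, log axis) by named cell class in the ventral (green) and proximal (purple) library. Points are levels of summed UMIs, bars are 95% Poisson intervals, and open triangles mark classes with 0 UMIs at the level that 3 UMIs would give. Shh was highest in basal-like cells, at 36.3 in the proximal and 26.2 in the ventral library, and Hhip and Gli1 were highest in fibroblast-like cells, at 109 and 23.3.

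Not all of the ligand lay in the cells named basal-like. Of the proximal Shh UMIs, 48.5% were in basal-like cells, and clusters 5 and 6, which make up that class, had similar Shh levels of 37.9 CPM (31.9 to 44.7) and 35.0 CPM (29.6 to 41.0). Another 21.8% of the Shh UMIs lay in cluster 11, an unnamed cluster of 245 cells whose best marker score was basal and whose leading genes were Grp, Ivl, Aqp3 and Krt5. Its Shh level was 28.6 CPM (23.9 to 33.9), 0.788-fold (0.636 to 0.971) that of basal-like cells, and the 2 CPM intervals overlapped. Cluster 3, unnamed and led by Clca1, Krt4, Upk3a and Ly6d, held a further 9.30% of the Shh UMIs at 12.7 CPM (9.57 to 16.5), an interval above those of both luminal classes, while its best marker score was proximal luminal. Clusters 11 and 3 stayed unnamed because their leading genes held more markers of periurethral luminal cells than of the best-scoring class. The 26 seminal vesicle epithelium-like cells held 11 UMIs of Shh at 11.6 CPM (5.77 to 20.7). T or NK-like cells had 3 UMIs of Shh, all in 1 cell. The ligand level thus differed widely between epithelial clusters, with the highest values in clusters 5 and 6.

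In single cells, Shh was found in 203 of 686 proximal basal-like cells, 29.6% (26.2 to 33.2), at a median depth of 11139 UMIs, and in 4.09% (2.73 to 5.85) after each cell was thinned to 1000 UMIs. The macrophage-like cells, which should not make the ligand, held Shh in 0 of 59 cells at a median of 10606 UMIs, which allows a share of up to 5.08% at 3 counts, thinned or not, with an exact upper bound of 6.06%. The unthinned basal-like share lies above both, and the thinned share lies below both and cannot be separated from them. Other proximal cells also showed Shh unthinned. It was in 10 of 26 seminal vesicle epithelium-like cells, 38.5% (20.2 to 59.4), at a median of 41445 UMIs, and in 0 of them after thinning. In the unnamed cells it was in 17.2% (14.7 to 20.0), at a median of 17546 UMIs. In the ventral library 15 of 141 basal-like cells had a UMI of Shh, 10.6% (6.08 to 16.9), at a median of 4933 UMIs. After thinning, 0 of 140 ventral basal-like cells did, so that share was not detectable at 1000 UMIs. Without thinning, 0 of 29 ventral macrophage-like cells had Shh, which allows 10.3% at 3 counts, with an exact upper bound of 11.9%. Both lie inside the unthinned ventral basal-like interval, so that share cannot be separated from the macrophage-like class.

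Basal-like cells with and without Shh were compared for 3 of the other pathway genes. Ptch1 was found in 26.6% (20.7 to 33.2) of the 203 cells with Shh and in 21.7% (18.1 to 25.7) of the 483 without. Gli3 was found in 47.8% (40.7 to 54.9) and 38.9% (34.6 to 43.4). Smo was found in 20.7% (15.3 to 26.9) and 23.4% (19.7 to 27.4). All 3 pairs of intervals overlapped, also for Trp63, the basal transcription factor, at 49.8% (42.7 to 56.8) and 46.2% (41.7 to 50.7). Overlap of the intervals does not show that the shares are equal.

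Fibroblast-like cells had little of the ligand. They held 14 UMIs of Shh, of which 10 were in 1 cell, at 2.55 CPM (1.39 to 4.27), which was 0.446-fold (0.241 to 0.757) the level of the epithelial-named classes together. In 13 of 521 fibroblast-like cells, 2.50% (1.34 to 4.23), at least 2 basal markers had at least 2 UMIs each, and these 13 cells held 12 of the 14 Shh UMIs. Without such mixed cells the log2 ratio of Shh in fibroblast-like over epithelial cells was -3.88, against -1.17 with them. The same 13 cells held 6 of the 128 UMIs of Gli1, 18 of the 398 of Ptch1 and 28 of the 602 of Hhip in the class. Among basal-like cells 4 were mixed in the same sense with fibroblast markers, and they held 1 of the 292 Shh UMIs.

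Of the 6 genes of the receiving side, 5 had their highest proximal level in fibroblast-like cells and Gli3 had it in basal-like cells. For Gli2 the intervals of small classes with 0 UMIs overlapped the fibroblast-like interval. Ptch1 and Hhip are the pathway's membrane-bound targets, and the 250 bases before the RefSeq start of each gene are shown because both genes had their highest level in the fibroblast-like class. The sequences are from RefSeq on GRCm38.p6, read 5′ to 3′ on the gene's strand, and promoter windows were found for 5 of the 7 genes. Ptch1 chr13:63565736-63565985, minus strand, lies inside the longer Ptch1 gene that GENCODE M21 annotates, whose start is at 63573598, with 0 annotated exons overlapping the window, and Hhip chr8:80058009-80058258, minus strand, overlaps 0 annotated genes. Capitals mark a stretch of 9 bases with the most letters of the GLI consensus core GACCACCCA on either strand, in Hhip the only such stretch and in Ptch1 the first of 4 with equal matches.
Ptch1: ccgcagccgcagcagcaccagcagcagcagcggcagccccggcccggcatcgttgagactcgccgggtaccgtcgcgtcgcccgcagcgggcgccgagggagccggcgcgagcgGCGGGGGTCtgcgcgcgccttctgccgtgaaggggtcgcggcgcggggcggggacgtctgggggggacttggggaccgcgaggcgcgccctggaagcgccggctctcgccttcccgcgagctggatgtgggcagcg
Hhip: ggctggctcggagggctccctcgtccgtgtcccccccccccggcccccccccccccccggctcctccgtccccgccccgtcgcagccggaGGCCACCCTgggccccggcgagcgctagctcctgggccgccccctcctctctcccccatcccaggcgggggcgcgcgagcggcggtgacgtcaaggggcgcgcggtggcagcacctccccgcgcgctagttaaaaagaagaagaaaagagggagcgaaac
The closest stretch matched 6 of 9 letters in Ptch1, on the minus strand of the window, and 7 of 9 in Hhip, on the plus strand. Of all 32851 windows of this length, 98.6% had a stretch with at least 6 and 51.8% one with at least 7 matching letters, so these matches are common. The full core was in 74 windows, 0.225%, and in none of the 5 windows of these genes (Ptch1, Smo, Gli2, Gli3 and Hhip), which says only that these letters are not there. GC content was 78.4% in the Ptch1 window and 76.0% in the Hhip window, against a median of 52.4% over all windows.

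Ptch1 (ENSMUSG00000021466, chromosome 13, 63508328 to 63573598, minus strand) had 1284 UMIs in proximal and 210 in ventral cells. Its level was 72.4 CPM (65.4 to 79.8) in fibroblast-like cells, 27.9 CPM (24.3 to 31.8) in basal-like cells and 19.8 CPM (11.3 to 32.2) in the 61 endothelial-like cells. In proximal luminal-like cells Ptch1 was 8.01 CPM (6.91 to 9.23) and among distal luminal-like cells it was 6.21 CPM. Macrophage-like cells had 4 UMIs of Ptch1 at 5.83 CPM (1.59 to 14.9), an interval that holds both luminal levels. The fibroblast interval lay above all others, while basal-like and endothelial-like cells overlapped. Fibroblast-like cells had 7.70-fold (6.77 to 8.74) the Ptch1 level of the epithelial-named classes together and 2.60-fold (2.20 to 3.07) that of basal-like cells. Ptch1 was therefore present in the cells with the most ligand as well as in the stroma. In the ventral library, Ptch1 was 21.5 CPM (13.8 to 32.0) in proximal luminal-like cells and 3.76 CPM in distal luminal-like cells, and these intervals did not overlap. The ventral basal-like (4.76 to 21.7 CPM), T or NK-like (1.68 to 23.7) and macrophage-like (0.188 to 41.4) intervals of Ptch1 all overlapped that of proximal luminal-like cells.

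Hhip (ENSMUSG00000064325, chromosome 8, 79965851 to 80058006, minus strand) had the largest share of its UMIs in 1 class among the 7 genes. Of its 633 proximal UMIs, 95.1% were in fibroblast-like cells, at 109 CPM (101 to 119). Basal-like cells had 6 UMIs of Hhip at 0.746 CPM (0.274 to 1.62), proximal luminal-like cells had 6, all in 1 cell, and distal luminal-like cells had 15, of which 9 were in 1 cell. Endothelial-like cells held 0 UMIs of Hhip. The level in fibroblast-like cells was 270-fold (184 to 414) that of the epithelial-named classes, 147-fold (67.0 to 401) that of basal-like cells and, with 3 UMIs set for the 0, at least 29.5-fold higher than in endothelial-like cells, where the exact interval began at 23.9. The first of these was 8.08 on the log2 scale and ranged from 6.92, with each cell named by its own markers, to 10.53, with free RNA subtracted. The ventral library, which had no fibroblast-like cluster, held 0 UMIs of Hhip in 1988 cells.

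Smo (ENSMUSG00000001761, chromosome 6, 29735503 to 29761365, plus strand) was found in fibroblast, basal and proximal luminal cells alike, with 1804 proximal and 148 ventral UMIs. Its level was 50.9 CPM (45.1 to 57.2) in fibroblast-like cells, 30.6 CPM (28.4 to 32.9) in proximal luminal-like, 26.2 CPM in basal-like and 21.0 CPM (12.3 to 33.7) in endothelial-like cells. The fibroblast interval lay above the other 3, which overlapped one another. Distal luminal-like cells stood apart with 1.90 CPM (1.47 to 2.43) of Smo. Proximal luminal-like cells thus had 16.1-fold (12.4 to 21.0) the Smo level of distal luminal-like cells in the proximal library. The same ratio in the ventral library was 14.6-fold (9.44 to 22.1), with 28.7 CPM (19.6 to 40.5) against 1.97 CPM (1.58 to 2.42). Ventral macrophage-like cells held 4 UMIs of Smo, 29.8 CPM (8.11 to 76.2), so at this depth the ventral proximal luminal-like and basal-like levels cannot be separated from that class. Proximal macrophage-like cells had 7.29 CPM (2.37 to 17.0) of Smo, an interval below that of fibroblast-like, proximal luminal-like and basal-like cells. Fibroblast-like cells had 3.40-fold (2.97 to 3.89) the level of the epithelial-named classes.

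The 3 Gli factors differed in where they were found. Gli1 (ENSMUSG00000025407, chromosome 10, 127329882 to 127341974, minus strand) had 145 proximal UMIs, of which 88.3% were in fibroblast-like cells, at 23.3 CPM (19.4 to 27.7). Basal-like cells had 6 UMIs of Gli1 in 6 cells at 0.746 CPM (0.274 to 1.62), proximal luminal-like cells had 4 and distal luminal-like cells 3. The fibroblast level of Gli1 was 119-fold (67.4 to 230) that of the epithelial-named classes and 31.2-fold (13.9 to 86.5) that of basal-like cells. The first was 6.90 on the log2 scale and 5.31 with each cell named by its own markers. The ventral library held 2 UMIs of Gli1, both in basal-like cells.

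Gli2 (ENSMUSG00000048402, chromosome 1, 118834132 to 119053619, minus strand) was sparse, with 33 proximal UMIs and none in the ventral library. Fibroblast-like cells held 29 of them at 5.27 CPM (3.53 to 7.57), and the other 4 were in distal luminal-like cells. Basal-like cells held 0 UMIs of Gli2, so with 3 UMIs set for the 0 the fibroblast level was at least 14.1-fold higher (the exact interval began at 10.8), and it was 87.9-fold (30.9 to 344) that of the epithelial-named classes together. Against endothelial-like cells, also at 0, the CPM intervals of Gli2 overlapped, while the exact interval of the ratio began at 1.08. T or NK-like, macrophage-like and seminal vesicle epithelium-like cells held 0 UMIs of Gli2 too, with exact upper bounds of 7.19, 5.38 and 3.88 CPM. All lie inside the fibroblast-like interval, so the CPM intervals do not separate the fibroblast level of Gli2 from those classes.

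Gli3 (ENSMUSG00000021318, chromosome 13, 15463235 to 15730026, plus strand) had another order, with the highest level in basal cells. Proximal basal-like cells held 474 of its 946 UMIs, at 59.0 CPM (53.8 to 64.5), against 35.3 CPM (30.5 to 40.6) in fibroblast-like cells. The fibroblast level of Gli3 was thus 0.598-fold (0.504 to 0.708) that of basal-like cells. The luminal levels of Gli3 were 1.14 CPM (0.754 to 1.66) in the proximal and 0.410 CPM (0.224 to 0.688) in the distal luminal-like class, so basal-like cells had 51.5-fold (35.0 to 79.0) the Gli3 level of proximal luminal-like cells. In the ventral library basal-like cells held 24 of the 30 UMIs of Gli3, at 33.1 CPM (21.2 to 49.2), proximal luminal-like cells held 1, distal luminal-like cells 3 and T or NK-like cells 2. The ventral basal interval of Gli3 lay above those 3 classes, among which both luminal intervals overlapped, and it overlapped the limit of macrophage-like cells. The unnamed cluster 11, second to the basal clusters in Shh, also had 45.6 CPM (39.7 to 52.3) of Gli3, while cluster 3 had 2.49 CPM (1.24 to 4.45) of Gli3. Against the epithelial-named classes together, Gli3 was 4.53-fold (3.82 to 5.36) higher in fibroblast-like cells. As a mean of CPM per cell, in which every cell counts equally, that difference was 0.85 on the log2 scale, below the 2-fold threshold used here, against 2.18 for summed UMIs. Basal-like cells therefore had Ptch1, Smo and Gli3 with at most 6 UMIs each of Gli1, Gli2 and Hhip, and fibroblast-like cells had all 6.

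**Figure D2:**
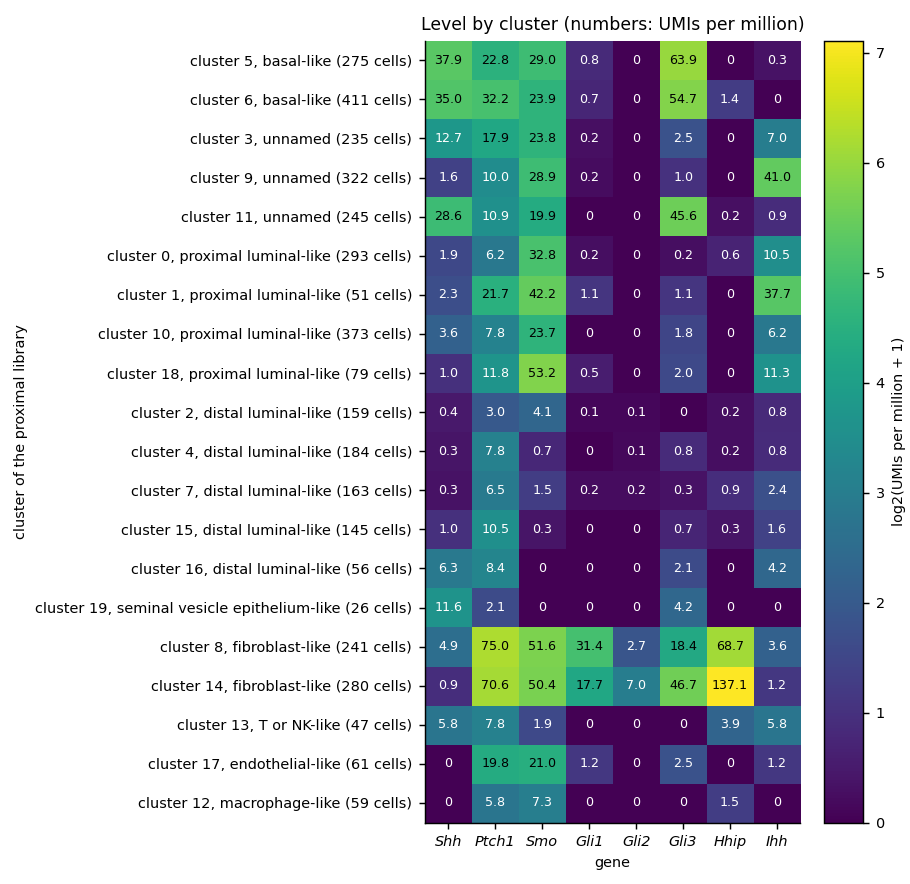
Level of the 7 genes and of the second ligand Ihh (colour, log2 of CPM + 1, with CPM as numbers) in each cluster of the proximal library. Shh and Gli3 were both high in basal-like clusters 5 and 6 and in unnamed cluster 11, Gli1 and Hhip were high in fibroblast-like clusters 8 and 14, and Ihh was highest in clusters 9 and 1.

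**Figure D3:**
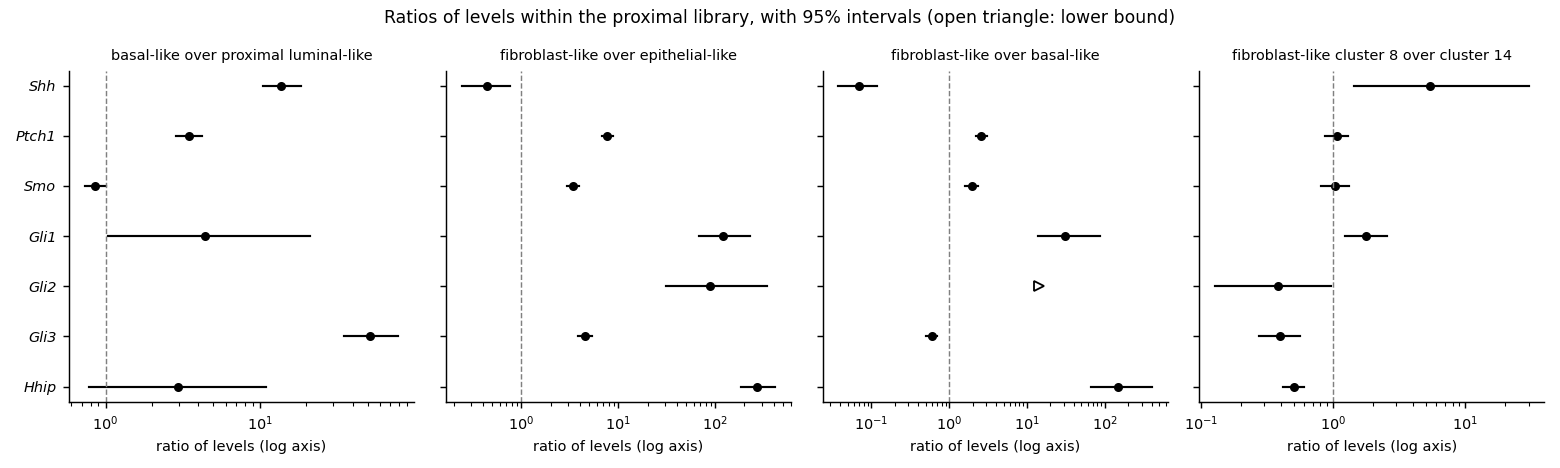
Ratio of levels (log axis) for each of the 7 genes in 4 comparisons within the proximal library, with exact 95% intervals, and an open triangle where a group held 0 UMIs and the ratio is a lower bound. Genes with 0 UMIs in both groups are not drawn. Gli1, Gli2 and Hhip lay far to the right in fibroblast-like over epithelial-like cells, and Gli3 lay left of 1 in fibroblast-like over basal-like cells.

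The pathway's targets Gli1, Ptch1 and Hhip were counted cell by cell in the fibroblast-like class. Gli1 was found in 54 of 212 fibroblast-like cells with a UMI of Ptch1, 25.5% (19.8 to 31.9), and in 45 of 309 without one, 14.6% (10.8 to 19.0). Gli1 was found in 25.1% (19.4 to 31.5) of cells with Hhip and in 14.8% (11.1 to 19.3) of cells without. Hhip was found in 54.2% (47.3 to 61.1) of cells with Ptch1 and in 31.1% (26.0 to 36.6) of cells without. Genes not named here as targets also went with Gli1. With Smo its share was 28.1%, against 14.6% without, and with Gli3 29.2%, against 16.0% without. The intervals did not overlap in either pair. By Gli2 the shares of Gli1 were 23.1% and 18.8%, with overlapping intervals. These differences in the share of Gli1 were therefore not particular to the targets. Since a deeper cell is more likely to show any gene, the cells were divided at their median of 10307 UMIs. In the deeper 260 cells Gli1 was in 32.3% (24.4 to 41.1) with Ptch1 and 23.1% (16.1 to 31.3) without, and in the shallower 261 in 14.6% (7.80 to 24.2) and 8.38% (4.77 to 13.4). Both pairs kept the direction, and the intervals of both overlapped. The same held for Gli1 by Smo and for Gli1 by Gli3. Hhip by Ptch1 was 65.4% (56.5 to 73.5) against 39.2% (30.8 to 48.2) in the deeper cells, where the intervals did not overlap, and 36.6% (26.2 to 48.0) against 25.1% (19.0 to 32.2) in the shallower. Gli1 by Hhip was 41 of 136 cells against 31 of 124 in the deeper and 16.0% against 8.06% in the shallower cells, with overlapping intervals in both. Depth moved with these shares, and its part in the differences within each depth class was not tested.

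All 3 targets, Gli1, Ptch1 and Hhip, were found together in 30 of 521 fibroblast-like cells, 5.76% (3.92 to 8.12), and 2 of the 3 in a further 25.3% (21.7 to 29.3). None of the 3 was found in 36.7% (32.5 to 41.0) of fibroblast-like cells, against 75.8% (72.4 to 79.0) of basal-like and 82.3% (79.5 to 84.9) of proximal luminal-like cells. Among basal-like, distal luminal-like and endothelial-like cells 0 held all 3, and among 796 proximal luminal-like cells 1 did. Median depth was 10307 UMIs in fibroblast-like, 11139 in basal-like and 20447 in proximal luminal-like cells, and its part in these shares was not tested. After thinning to 1000 UMIs, Ptch1 was in 9.11% (6.77 to 11.9), Hhip in 8.91% (6.60 to 11.7) and Gli1 in 2.71% (1.49 to 4.51) of fibroblast-like cells, and each was in 0 of 59 macrophage-like cells, which allows up to 5.08% at 3 counts, with an exact upper bound of 6.06%. The thinned share of Gli1 lies below both and cannot be separated from them. Without thinning, macrophage-like cells held Ptch1 in 3.39%, Hhip in 1.69% and Gli1 in 0 of 59 cells, against 40.7%, 40.5% and 19.0% of fibroblast-like cells.

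**Figure D4:**
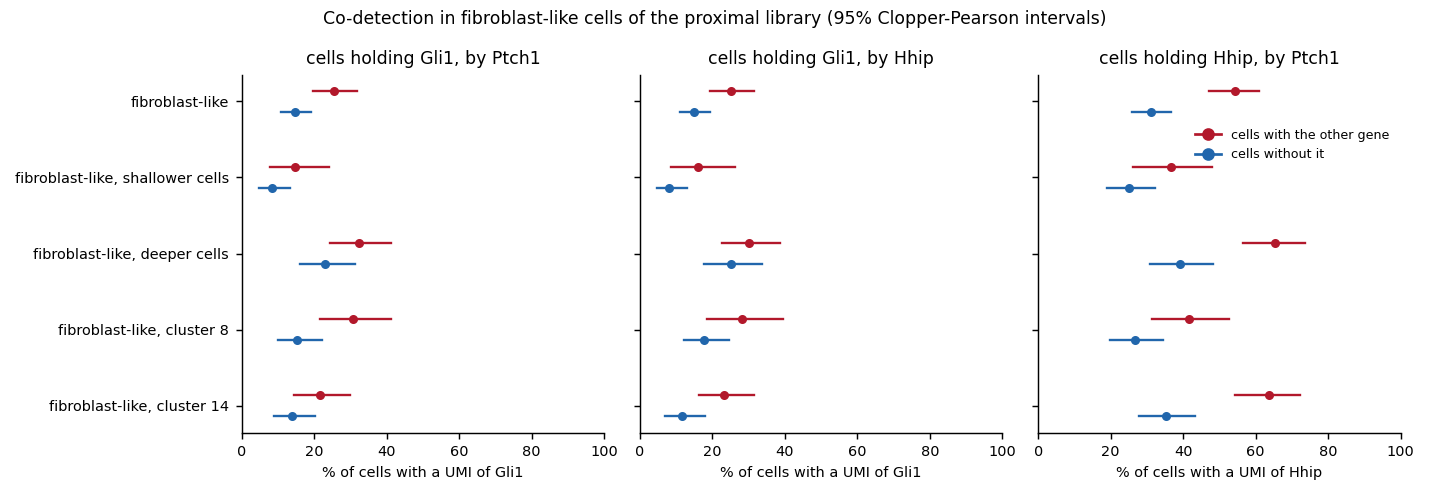
Share of fibroblast-like cells of the proximal library with a UMI of Gli1 (left, middle) or Hhip (right), in cells with (red) and without (blue) a UMI of the gene named in each title, for the class, for its shallower and deeper cells and for clusters 8 and 14. Bars are 95% Clopper-Pearson intervals. The share was higher in cells with the other gene in every set of cells of each panel, and in all fibroblast-like cells it was 54.2% against 31.1% for Hhip by Ptch1.

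The 2 fibroblast-like clusters had different mixtures of these genes. Cluster 8, of 241 cells, was led by Cxcl14, Wif1, Rorb and Wnt2, and cluster 14, of 280 cells, by Col3a1, Cxcl12, Dpt and Igfbp6. Gli1 was 31.4 CPM (24.5 to 39.7) in cluster 8 and 17.7 CPM (13.5 to 22.9) in cluster 14, a ratio of 1.77 (1.23 to 2.56). Hhip went the other way, with 68.7 CPM (58.3 to 80.5) in cluster 8 and 137 CPM (125 to 150) in cluster 14, a ratio of 0.501 (0.414 to 0.603). Gli3 was also lower in cluster 8, at 18.4 CPM there and 46.7 CPM (39.6 to 54.8) in cluster 14, which gave 0.394-fold (0.272 to 0.559). Ptch1 levels were 75.0 CPM (64.1 to 87.3) and 70.6 CPM (61.8 to 80.3), and the ratio was 1.06. Smo levels were 51.6 CPM (42.6 to 62.0) and 50.4 CPM (43.0 to 58.7), and the ratio was 1.02. The receptors thus had overlapping levels in both clusters, while the targets Gli1 and Hhip were skewed in opposite directions. Gli2 had 6 and 23 UMIs, and its CPM intervals overlapped. None of these genes entered the clustering.

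Other pathway genes also separated the 2 clusters. Gas1, a co-receptor that helps cells bind the ligand, was 34.1 CPM (26.9 to 42.7) in cluster 8 and 292 CPM (273 to 311) in cluster 14, a ratio of 0.117 (0.0914 to 0.148). Boc, another co-receptor, had a ratio of 0.495 (0.369 to 0.657). Foxf1, a mesenchymal transcription factor and known target, had a ratio of 0.338 (0.225 to 0.493), whereas Mycn, also listed as a target, was 4.01-fold (1.95 to 8.87) higher in cluster 8. Bmp4 did not follow either, at 214 CPM (195 to 234) and 194 CPM (179 to 209) with overlapping intervals. Listed targets therefore lay on both sides of the 2 clusters.

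The second ligand of the family had another cellular source. Ihh, which signals through the same receptor, was found mainly outside the basal clusters: the unnamed cluster 9, whose leading genes were haemoglobins, Aqp5 and Ihh itself and whose best marker score was proximal luminal, held 57.2% of the proximal Ihh UMIs at 41.0 CPM (37.3 to 45.1). Cluster 1, proximal luminal-like and of 51 cells, had 37.7 CPM (25.9 to 52.9) of Ihh. Basal-like cells had 1 UMI of Ihh, and the class of proximal luminal-like cells had 225, a level 76.6-fold (13.6 to 3040) that of basal-like cells. Clusters 9 and 1 had little Shh, with 1.60 CPM (0.932 to 2.56) and 2.28 CPM (0.276 to 8.25). In fibroblast-like cells Ihh was 2.18 CPM (1.13 to 3.81). The third ligand, Dhh, had its highest level in endothelial-like cells, 5 UMIs at 6.19 CPM (2.01 to 14.4), and basal-like cells also had 5 UMIs of Dhh, at 0.622 CPM (0.202 to 1.45). Proximal T or NK-like, macrophage-like and seminal vesicle epithelium-like cells held 0 UMIs of Dhh, where 3 UMIs would be 5.85, 4.37 and 3.15 CPM. These limits lie inside the endothelial-like interval, so that level cannot be separated from those classes.

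The 51 other pathway genes on the lists comprised ligands, proteins that acylate or release the ligand, co-receptors, the relay from Smo to Gli, the primary cilium and mesenchymal targets, and 50 had the 20 UMIs needed for counting. In basal-like over proximal luminal-like cells, 5 of the 7 main genes were at least 2-fold higher (Shh, Ptch1, Gli1, Gli3 and Hhip, the intervals of Gli1 and Hhip overlapping), beside 19.6% of all 18715 genes tested, and 0 were at least 2-fold lower, beside 13.8%. Their median log2 ratio was 1.80, with Gli2, which had 0 UMIs on both sides, at 0, and that of all genes tested was 0.04. Of the 50 other genes 17 were higher and 5 lower, with a median of 0.43. Among the higher genes were the co-receptor Gas1, 30.5-fold (16.0 to 65.6), the ligand-binding proteoglycan Gpc3, 36.3-fold (19.7 to 74.4), and the ciliary relay proteins Evc, 19.6-fold (5.81 to 103), and Evc2, 17.9-fold (9.11 to 39.2). Kif7, which links the cilium to Gli, was 7.05-fold (2.31 to 25.5) higher, from 12 and 5 UMIs. Bmp4 was 7.89-fold (5.20 to 12.2) higher, and Mycn 64.6-fold (10.4 to 2666), the latter against 1 UMI. Of the release list Hhat, Disp2, Scube1 and Scube2 were past the fold upward, the intervals of Hhat and Disp2 overlapping, and Disp1 downward, at 0.289-fold (0.150 to 0.512).

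In fibroblast-like over epithelial-named cells, 6 of the 7 main genes were at least 2-fold higher, beside 27.0% of all genes tested, and 1, Shh, was at least 2-fold lower, beside 14.8%. Their median log2 ratio was 2.94, and that of all genes tested was 0.17. Of the 50 other genes 26 were higher and 1, Ulk3, was lower, with a median of 1.02. Among the mesenchymal targets 7 of 8 counted genes were higher. Foxf1 was 170-fold (96.8 to 325), Foxf2 125-fold (39.1 to 641), Bmp4 91.6-fold (77.0 to 110) and Igfbp6 416-fold (361 to 482) higher in fibroblast-like cells. These are genes of mesenchymal cells in general, so the list was not chosen independently of cell type. Gas1 was 72.7-fold (61.8 to 85.9) higher, at 187 CPM against 2.58 CPM. Of the release list Disp2 was 28.7-fold (16.5 to 52.0) and Disp1 2.02-fold (1.39 to 2.87) higher. Also higher were the ciliary receptor Gpr161 (42 against 17 UMIs) and Evc, at 15.8-fold (8.89 to 28.5). Of the 12 cilium genes 4 were higher (Ift57, Ift80, Kif3a and Arl13b) and 0 lower. The 4 are near the 27.0% of all genes tested, so this count is no result about the cilium list.

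**Figure D5:**
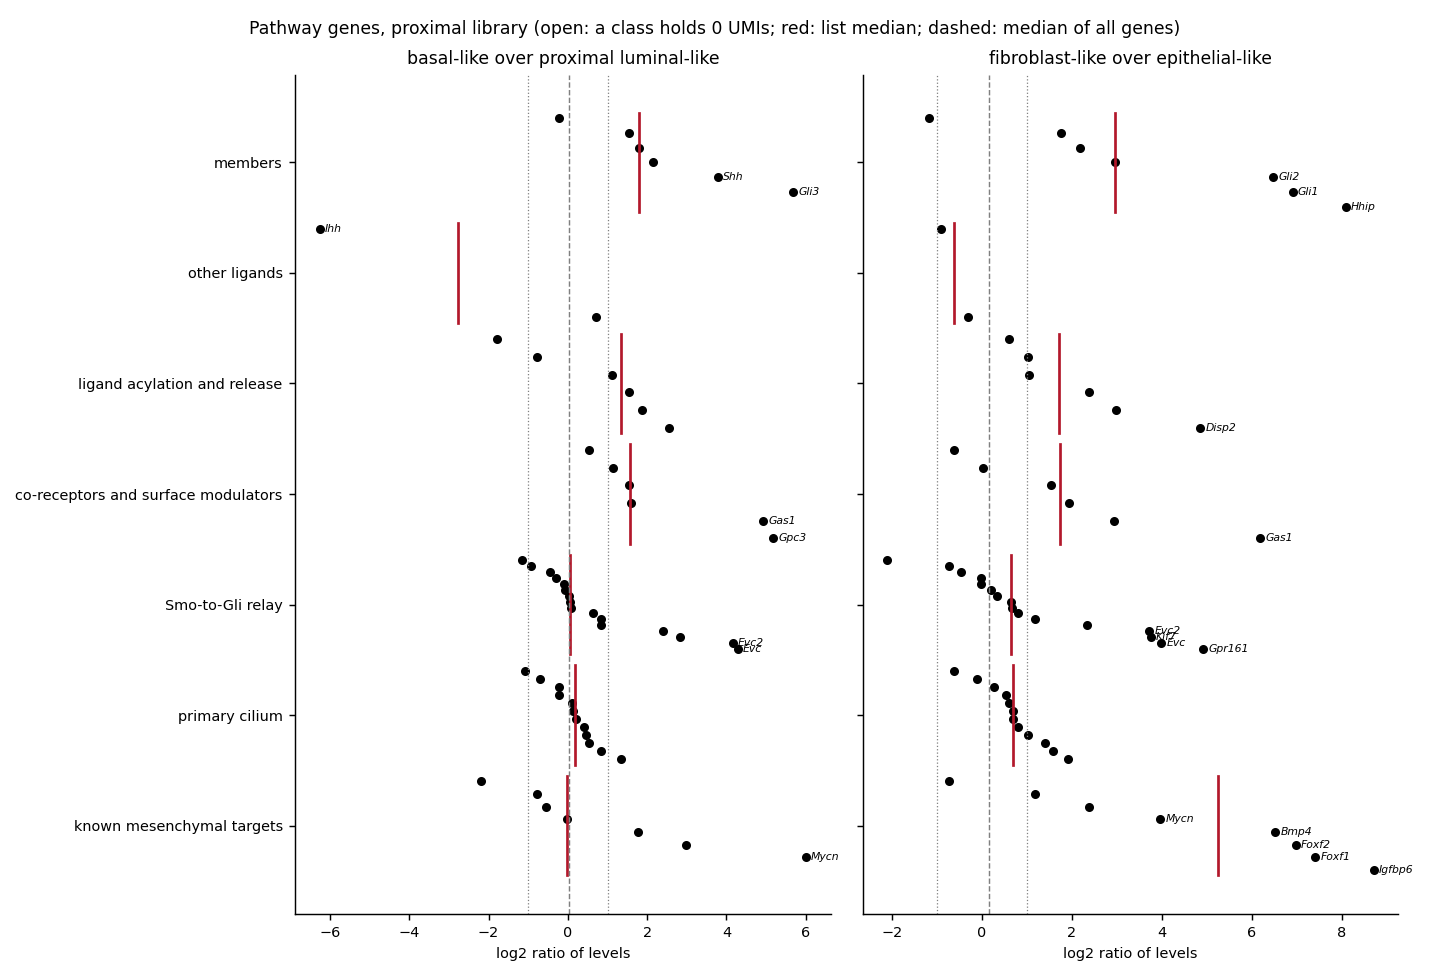
Log2 ratio of levels for the counted genes of each pathway list, in basal-like over proximal luminal-like cells (left) and fibroblast-like over epithelial-named cells (right) of the proximal library. Points are genes, with names where the ratio is 3 or more in size, red lines list medians, the dashed line the median of all genes tested and dotted lines the 2-fold threshold. The target list reached a median of 5.24 on the right, where Igfbp6 was the highest point, and Ihh was the lowest point on the left.

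Between the 2 libraries, only classes with at least 50 cells in both were compared, and any difference is one of region, kit and mice together. Shh in basal-like cells was 1.39-fold (0.872 to 2.34) as high in the proximal as in the ventral library, an interval that includes 1. With each cell named by its own markers the log2 ratio of Shh went from 0.47 to -0.51. The ratio for Smo in basal-like cells was 0.907, with an interval that also includes 1. Ptch1 was 2.53-fold (1.26 to 5.92) and Gli3 1.78-fold (1.18 to 2.81) higher in proximal basal-like cells, the former against 8 ventral UMIs. In proximal luminal-like cells Ptch1 was lower in the proximal library, at 0.372-fold (0.242 to 0.595), and in distal luminal-like cells it was 1.65-fold (1.34 to 2.03) as high. Other differences in distal luminal-like cells rest on few UMIs: Shh had 16 proximal against 2 ventral UMIs, Gli3 14 against 3, and Hhip 15, of which 9 were in 1 cell, against 0. Leaving out genes that hold over 1% of the UMIs of a class moved the log2 ratio of Ptch1 in distal luminal-like cells from 0.72 to 0.15. Finer clustering moved that of Ptch1 in proximal luminal-like cells from -1.43 to -0.42.

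Genes with the most similar pattern to each of the 7 were found over the 34 clusters of both libraries, 14 ventral and 20 proximal, as Pearson's r of log2(CPM + 1) among 13150 genes. Clusters of 1 library share its depth and free RNA, so r is a description only. The 3 genes closest to Shh were Pkp1 (r = 0.90), Krt5 (0.89) and Lgals7 (0.88), 2 of them a desmosome component and a basal keratin. Closest to Gli3 were Sdk1 (0.94), Tpm2 (0.92) and Kctd15 (0.91). Ptch1 was most like Evc2 (0.91), Evx2 (0.90) and Ltbp4 (0.87), of which Evc2 is a ciliary component of the same pathway. Smo was most like Zfp467 (0.89), Mfge8 (0.88) and Glis2 (0.87). Gli1 was most like Tceal3 (0.98), Prrg3 (0.98) and the growth factor receptor gene Pdgfrb (0.97), and Hhip like Has2 (0.98), the Wnt modulator Sfrp2 (0.97) and Gria1 (0.97). Gli2 had too few UMIs for this measure.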

How the data were processed

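Dissociated prostate cells from 2 libraries were profiled on the 10x Genomics platform. The deposited matrices give UMI counts that were not normalized, made with Cell Ranger 7.0.0 on mm10 per the submitters' processing notes. The annotation and the use of intronic reads are not given in the sources used here. Gene coordinates are from GENCODE M21 on GRCm38, the same build. The genes and lists were chosen with earlier results of these data known.

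Barcodes with under 500 genes or over 10% mitochondrial UMIs were removed (226 ventral, 635 proximal). Scrublet called 11 cells, 0.193%, and so has not worked: doublets are largely still present. Cells were clustered per library (scanpy 1.11.5, igraph 0.11.9, 2000 variable genes without the pathway genes, 30 components, 15 neighbours, Leiden resolution 1, seed 0) into 14 and 20 clusters. Clusters were named from markers of 23 classes, by the largest mean difference from the other cells, with at least 3 markers found in 25% of cells. They stayed unnamed where another class had more markers among the 10 leading genes, genes at about the same share in every cluster (under 1.5-fold) left out. The scoring and these limits were not fixed beforehand.

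UMIs were summed per class and divided by class totals. Intervals are 95%: exact Poisson for levels, conditional for ratios, Clopper-Pearson for shares, and a count of 0 was set to 3 counts (scipy 1.17.1). They cover counting error only. A gene was counted in a comparison with at least 20 UMIs over all kept proximal cells and as higher or lower at a 2-fold ratio. All 7 genes are named throughout; of the others up to 8 per comparison with non-overlapping intervals, by size of ratio, were named first. The remaining named genes (those of the 2 fibroblast clusters, Dhh, Disp1, Hhat, Scube1, Scube2, Ulk3 and cilium genes) were chosen after their values were seen. The ratio step was tested on simulated data: of 200 genes changed 8-fold among 18715, 93.0% were recovered for basal over proximal luminal cells and 90.0% for fibroblast over epithelial cells, and 100% of those with at least 20 expected UMIs in both classes. The last measure was added after the 90.0% was seen. Of unchanged genes 5.72% and 5.34% passed the 2-fold threshold. Other filters, cluster settings, scalings, thinning depths and folds were tried, and further alternatives (unnamed clusters counted in, scaling without abundant genes, cells with much Sbp and Spink1 or with mixed markers left out) were chosen after seeing the data.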

Additional observations from a re-analysis of the deposited data

How the results depend on the processing

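With 1 library per group there is no replicate to leave out. No paired analysis was possible because each group has 1 library and the result comes from no test. Under the alternatives 353 ratios, shares and counts stayed within counting error of the reported one and 83 moved further, as did 6 levels. No value whose interval left out a ratio of 1 changed direction. Depth limits Gli2 and the ventral values, which rest on few UMIs. Ventral Shh ratios have no value with both libraries clustered jointly, because that naming left 1 ventral basal-like cell. The minimum of 20 cells was added after this was seen. The causes of the moves below were not tested.

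The log2 ratio of Shh in basal-like over proximal luminal-like cells was 3.79 in the proximal library. It was 2.42 and 2.79 at Leiden resolutions 0.5 and 2, 2.98 with another seed, 3.03 with pathway genes kept, 3.09 with joint clustering and 2.90 with each cell named by its own markers. Against distal luminal-like cells (6.28) it was 3.75 with cells named singly, 7.93 with 5% free RNA subtracted and 4.78 as a mean of CPM per cell. In the ventral library the ratio to proximal luminal-like cells (3.28, a bound) was 2.35 at resolution 0.5 and 2.53 without cells rich in Sbp and Spink1.

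For fibroblast-like over epithelial cells, Shh (-1.17) was -3.25 with the looser and -3.31 with the stricter cell filter, -4.17 without high Scrublet scores, -3.44 at resolution 2, -3.96 with cells named singly, -3.69 as a mean per cell, -2.94 without the cell richest in Shh and -3.88 without mixed cells. Ptch1 (2.94) was 2.74 at resolution 2 and 2.54 as a mean per cell. Smo (1.77) was 2.07 with the stricter filter, 1.97 at resolution 0.5, 2.08 at resolution 2, 1.97 with more variable genes, 1.48 with cells named singly, 1.44 as a mean per cell and 1.55 with unnamed clusters counted as epithelial. Gli1 (6.90) was 5.31 with cells named singly. Gli3 (2.18) was 1.82 with the looser and 1.94 with the stricter filter, 1.76 without high Scrublet scores, 1.68 at resolution 0.5, 1.76 with another seed, 1.93 with pathway genes kept and 0.85 as a mean per cell. Hhip (8.08) was 9.04 with the stricter filter, 9.05 without high Scrublet scores, 9.40 with joint clustering, 6.92 with cells named singly and 10.53 with free RNA subtracted.

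For the proximal over the ventral library, Shh in basal-like cells (0.47) was -0.51 with cells named singly, and Ptch1 in distal luminal-like cells (0.72) was 0.15 without abundant genes. Smo in distal luminal-like cells (-0.05) was 1.03 with the looser and -0.58 with the stricter filter, -0.96 without high Scrublet scores, 1.18 at resolution 0.5, 1.00 with cells named singly, -0.97 with free RNA subtracted and -0.62 without abundant genes. In proximal luminal-like cells Ptch1 (-1.43) was -0.42 at resolution 2, and Smo (0.09) was 0.79 with the looser and 0.81 with the stricter filter, -0.97 at resolution 0.5, -0.96 with cells named singly and -0.46 without cells rich in Sbp and Spink1.

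The share of basal-like cells with Shh at 1000 UMIs (4.09%) was 29.6% unthinned and 7.68% at 2000 UMIs. In fibroblast-like cells the share with Ptch1 (9.11%) was 6.75% with the looser and 6.02% with the stricter filter, 40.7% unthinned and 12.1% at 2000 UMIs. The share with Gli1 (2.71%) was 1.13% with the looser filter and 19.0% unthinned, and that with Hhip (8.91%) was 11.7% with the stricter filter, 40.5% unthinned and 14.8% at 2000 UMIs. With 2 UMIs needed for detection, Gli1 was in 6.90% of cells with Ptch1 and 3.69% without, in 8.94% with Hhip and 2.76% without, and Hhip in 44.8% with Ptch1 and 19.4% without. Of the other pathway genes, 11 were higher in basal-like cells at resolution 2 and 9 at a fold of 4 (17 as reported), and 9 were lower with cells named singly, 9 at a fold of 1.5 and 2 at a fold of 4 (5 as reported). In fibroblast-like cells 16 were higher at a fold of 4 (26 as reported). Lower there were 2 with the looser filter, without high Scrublet scores, at resolution 2 or with pathway genes kept, 4 with cells named singly, 6 at a fold of 1.5 and 3 with unnamed clusters counted as epithelial (1 as reported). The share of all genes tested past the fold was computed for the reported setting only. The counts under other settings have no such share beside them and are not read further. Among the levels, Shh in ventral basal-like cells (26.2 CPM) was 49.3 with cells named singly, and Ptch1 in fibroblast-like cells (72.4) was 80.2 as a mean per cell. Smo in proximal luminal-like cells (30.6) was 22.8 at resolution 0.5, 28.1 with more variable genes, 26.4 with joint clustering and 26.8 as a mean per cell.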

Other observations

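The 2 fibroblast-like clusters of the proximal library were also read with 2 lists of fibroblast genes that were not part of the pathway. These genes entered the clustering, so the values describe the clusters and are no finding about them. Of the first list, Rorb was 3.18-fold (2.98 to 3.40), Srd5a2, which converts testosterone to dihydrotestosterone, 5.88-fold (4.84 to 7.18) and Wnt2 2.89-fold (2.56 to 3.25) higher in cluster 8 than in cluster 14. Lgr5, Osr1 and Apoe of the same list went the other way, with ratios of 0.0908 (0.0748 to 0.109), 0.244 (0.182 to 0.323) and 0.168 (0.160 to 0.176). Of the second list, C3 at 0.110 (0.0732 to 0.160), Sult1e1 at 0.00406 (0.000103 to 0.0228), Cd34 at 0.408 (0.353 to 0.471), Pi16 at 0.583 (0.477 to 0.709) and Ly6c1 at 0.739 (0.651 to 0.838) were all lower in cluster 8, and Dpp4 had 4 and 2 UMIs. The cluster with more Gli1 was thus the one with more Srd5a2, Rorb and Wnt2, and the one with more Hhip, Gli3 and Gas1 had more Lgr5, C3 and Sult1e1. With 1 library these differences between clusters have no replicate check.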
